A study of Mus musculus with 36 samples.

Results

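Transcripts of 9 leukocyte adhesion genes were followed in cultured mouse haematopoietic stem progenitor cells, with Taf1 knocked out or not, before and during myeloid differentiation in culture. The genes were the integrin α subunits Itgam, Itgax, Itgal and Itga4, the β subunits Itgb2, Itgb1 and Itgb7, the selectin ligand gene Selplg and the hyaluronan receptor gene Cd44. They were chosen by symbol and were found in both deposited tables, 9 of 24411 genes. Taf1 encodes the largest subunit of TFIID, the general factor that binds core promoters for RNA polymerase II. The knockout groups carried the genotype label Taf1 KO, from a conditional model, and the control groups the label WT. The labels used here do not give the Cre driver, the part of Taf1 removed or the age of the mice. There were 12 groups of 3 libraries each: knockout and control cells from bone marrow at day 0, at day 3 once IL-3 plus SCF had been given, and on days 5 and 7 of a macrophage or a granulocyte course. The macrophage course used M-CSF, together with GM-CSF at first. The granulocyte course used G-CSF, together with IL-3 plus SCF at first. All cytokines were used at 50 ng/ml, and the medium held horse serum. No label says whether replicates came from separate mice, so p-values measure the spread between libraries, which may be technical. Values are TPM, a relative transcript abundance corrected for transcript length, and each group has n = 3.

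Integrins are cell surface receptors made of an α and a β chain, and a chain reaches the surface only with a partner. Itgb2 encodes the β2 chain (CD18) shared by the leukocyte integrins, which pairs with the products of Itgam (CD11b), Itgax (CD11c) and Itgal (CD11a) and binds ICAM ligands, fibrinogen and complement fragments. Itga4 encodes the α4 chain, which pairs with β1 to bind VCAM1 and fibronectin in the marrow, or with β7 to bind MAdCAM1 in the gut. Selplg encodes PSGL1, the ligand of P-selectin on which leukocytes roll, and Cd44 encodes the receptor that holds progenitors to hyaluronan in the marrow.

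TFIID acts at core promoters, so the reference sequence just before the start sites was read for the genes whose results are described in most detail: Itgam and Itgax, which lie near each other on chromosome 7 and rose over time in both genotypes, Itgb7, which was lower in knockout cells at 5 of 6 stages, and Cd44, which was higher in them at day 7. The RefSeq table (build GRCm38.p6) held 6 of the 9 genes, and Itgal, Itgb2 and Selplg were not among them. Each sequence is the 250 bases before the start site, 5′ to 3′ on the strand of the gene, and capitals mark matches, on either strand, to the motif TATAAA, the motif GAGGAA, the motif GGAAGT or the motif CCGCCC, a match on the other strand appearing as its reverse complement.
Itgam, chr7:128062390-128062639, plus strand: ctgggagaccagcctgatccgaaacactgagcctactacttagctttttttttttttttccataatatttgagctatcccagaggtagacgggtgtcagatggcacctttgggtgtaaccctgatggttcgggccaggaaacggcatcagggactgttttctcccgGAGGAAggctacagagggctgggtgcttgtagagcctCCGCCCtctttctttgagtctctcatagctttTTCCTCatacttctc
Itgax, chr7:128129300-128129549, plus strand: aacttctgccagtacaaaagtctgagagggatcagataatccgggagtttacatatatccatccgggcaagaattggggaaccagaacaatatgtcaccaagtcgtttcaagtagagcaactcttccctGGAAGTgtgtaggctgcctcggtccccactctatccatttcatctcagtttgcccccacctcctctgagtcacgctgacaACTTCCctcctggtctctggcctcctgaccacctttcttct
Itgb7, chr15:102231936-102232185, minus strand: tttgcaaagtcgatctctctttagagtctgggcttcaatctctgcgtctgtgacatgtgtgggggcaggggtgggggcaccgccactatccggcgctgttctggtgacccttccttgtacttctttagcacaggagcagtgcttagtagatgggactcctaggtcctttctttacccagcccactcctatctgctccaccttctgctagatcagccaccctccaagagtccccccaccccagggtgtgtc
Cd44, chr2:102901666-102901915, minus strand: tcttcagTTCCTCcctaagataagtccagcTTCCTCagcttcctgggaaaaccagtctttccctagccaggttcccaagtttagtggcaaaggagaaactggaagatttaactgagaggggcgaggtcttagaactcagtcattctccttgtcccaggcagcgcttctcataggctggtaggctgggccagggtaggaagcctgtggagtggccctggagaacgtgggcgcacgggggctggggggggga

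TATAAA, the core of the TATA box, was in none of the 6 windows, and 12.4% of all 32851 RefSeq windows held it. GAGGAA, a core bound by the myeloid factor PU.1, was in the windows of Itgam (first base 84 and 15 bases before the start), Cd44 (243 and 220 bases) and Itgb1 (9 bases), against 23.3% of all windows. GGAAGT, another form of the ETS family core, was in the window of Itgax only (121 and 41 bases before the start), against 19.7% of all windows. CCGCCC, the core of the GC box, was in those of Itgam, Itga4 and Itgb1, against 32.7% of all windows, and the Itgb7 window held none of the 4 motifs. The motif GAGGAA can share bases with the motif GGAAGT. These matches describe letters only. In the mouse annotation of build GRCm38 the genes, all protein-coding, span chr7:128062640-128118491 (Itgam), chr7:128129547-128150657 (Itgax), chr7:127296260-127335138 (Itgal), chr10:77530252-77565708 (Itgb2), chr2:79255426-79333123 (Itga4), chr8:128685654-128733200 (Itgb1), chr15:102215995-102231944 (Itgb7), chr5:113818536-113832644 (Selplg) and chr2:102811141-102901665 (Cd44).

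Taf1 itself was checked first. At day 0 it had 8.50, 8.98 and 9.06 TPM in knockout libraries, against 14.5, 14.1 and 13.6 TPM in control libraries (log2 difference -0.61, limma adjusted p = 1.13e-05). Its log2 difference at the other stages was -0.17 (day 3, adjusted p = 0.0711), -0.99 and -0.80 (days 5 and 7 of the macrophage course) and -0.85 and -0.47 (days 5 and 7 of the granulocyte course, largest adjusted p = 0.0012 among these 4). At day 3 the libraries overlapped, with 8.66, 10.3 and 9.06 TPM in knockout against 9.62, 10.9 and 11.5 TPM in control libraries. The transcript remained detectable in every knockout library. The day 3 difference passed with median-of-ratios scaling (-0.21, adjusted p = 0.00747), after leaving out structural RNA and histone genes (-0.19, 0.0357), when control replicate 1 was left out (-0.24, 0.0207) or knockout replicate 2 (-0.24, 0.0276), while over the 6 libraries left out in turn the adjusted p reached 0.245.

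All 36 libraries carry the same cell type label, and 8 of 8 progenitor markers (Kit, Cd34 and others) averaged at least 1 TPM at day 0. At day 7 of the macrophage course all 9 macrophage markers did, summing to 1797 to 1957 TPM in knockout and 1678 to 2517 TPM in control libraries, while the neutrophil genes S100a8 and S100a9 still took 2.68% to 3.94% of the TPM in knockout and 3.31% to 6.46% in control libraries. At day 7 of the granulocyte course all 9 macrophage markers also averaged at least 1 TPM. They summed to 859 to 933 TPM in knockout and 1063 to 1855 TPM in control libraries there. S100a8 and S100a9 took 14.5% to 16.3% of the TPM in knockout and 11.1% to 15.5% in control libraries of that stage. Libraries of both courses therefore held transcripts of both the macrophage and the neutrophil list, whether from the same or from different cells. In such bulk samples fewer cells of a type and less RNA per cell cannot be told apart. Some libraries stood apart from their group. Control replicate 1 at day 5 had S100a8 and S100a9 at 4.93% (macrophage course) and 5.49% (granulocyte course), against 13.9% to 14.5% in the other 4. Knockout replicate 1 at day 7 had the short RNAs Rpph1 and Rmrp at 9.49% and 7%, against 2.29% to 4.66% in knockout replicates 2 and 3.

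**Figure D1:**
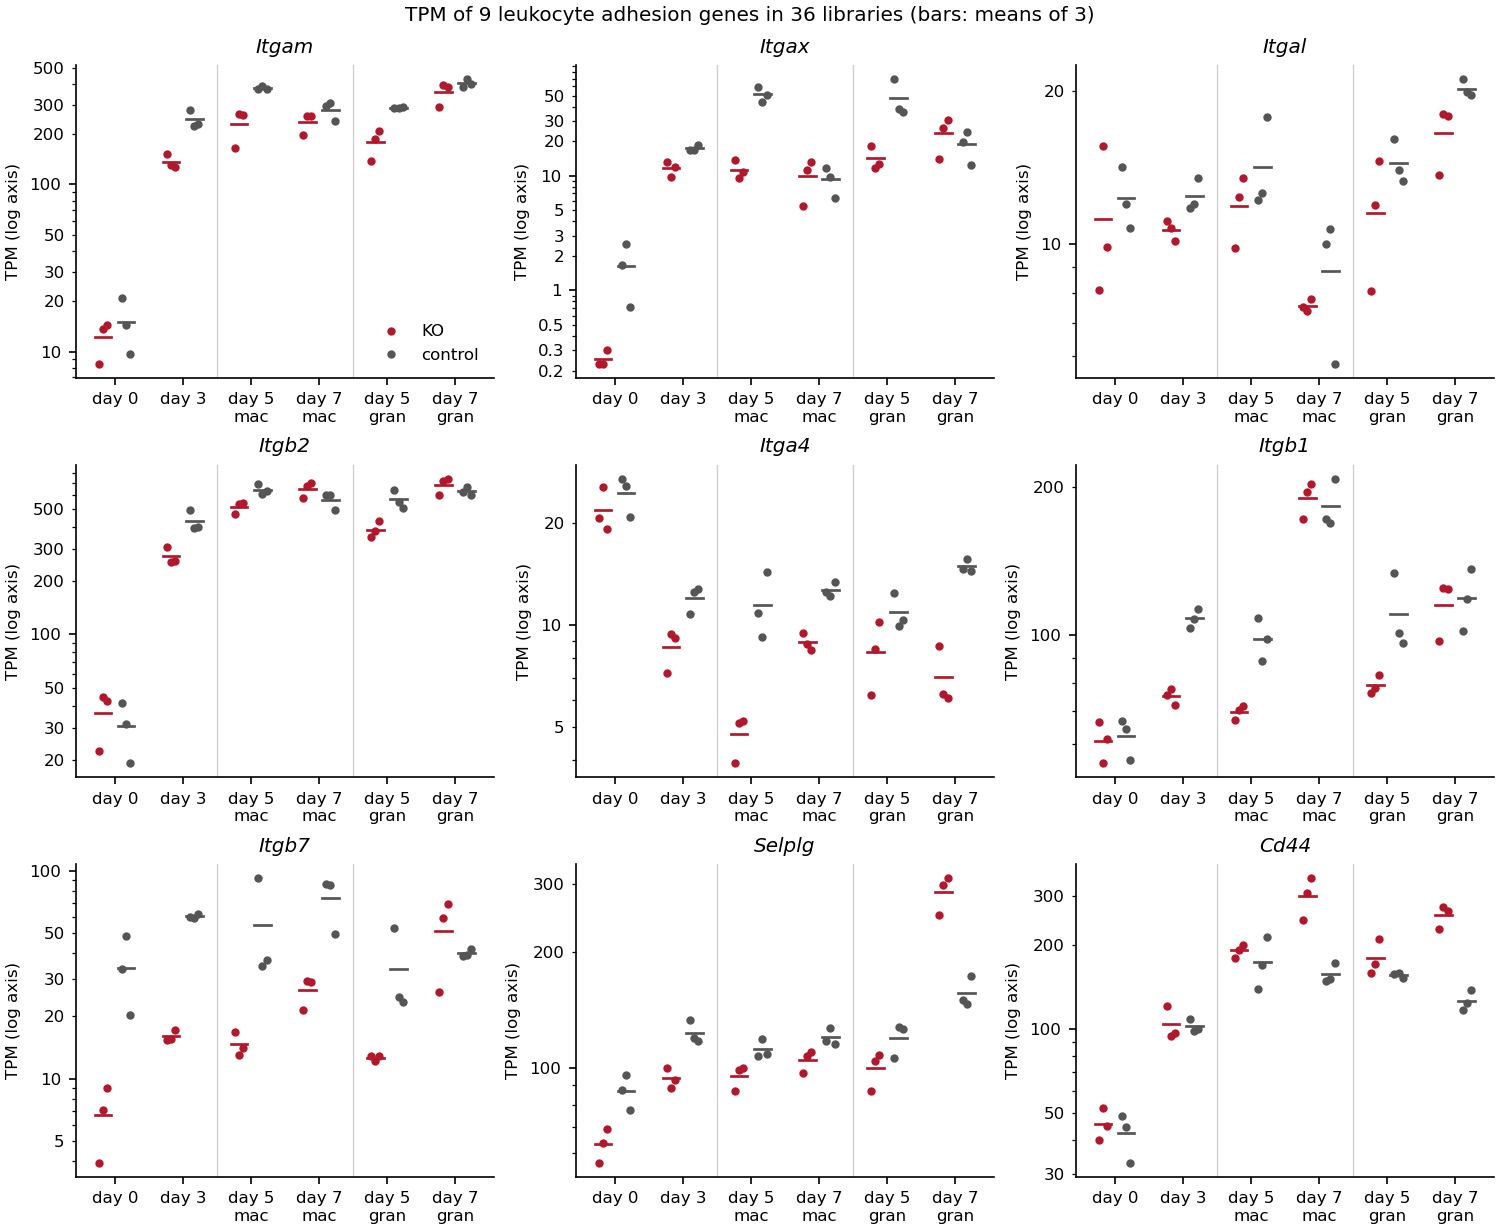
TPM of each gene on a log axis in all 36 libraries, knockout (red) left of control (grey) at each stage; points are libraries and bars are means of 3, with mac for the macrophage and gran for the granulocyte course. Itgam and Itgb2 are lowest at day 0 in both genotypes, Itga4 is highest there, and knockout points lie below control points for Itgb7 at every stage except day 7 of the granulocyte course.

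The 9 genes were detected throughout, with Itgax as the only one under 1 TPM in any library. Itgb2 and Itgam were the most abundant of the leukocyte integrin genes after day 0, with a median over all libraries of 522 and 257 TPM, against 12.8 TPM for Itgax and 12.1 TPM for Itgal. Itgb1 and Cd44 had medians of 97.8 and 152 TPM, Selplg 108 TPM, Itgb7 29.3 TPM and Itga4 10.6 TPM. All 9 genes passed the filter of at least 1 TPM in 3 libraries in each fit.

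Knockout and control were compared at each stage with limma over all genes kept, a gene being called at an adjusted p under 0.05. At day 0, 3 of the 9 genes were lower in knockout libraries and 0 higher, where 23.3% of all genes tested were called (10.2% lower, 13.1% higher). At day 3, 6 were lower and 0 higher, against 53.2% of all genes (26.7% lower, 26.5% higher). Day 5 of the macrophage course had 6 lower and 0 higher, against 43% (37.9% lower, 5.11% higher), and 4 to 5 called with any 1 library left out. Day 7 of that course had 2 lower and 1 higher, against 39.9% (12.5% lower, 27.4% higher). Day 5 of the granulocyte course had 4 lower and 0 higher, against 32% (22.8% lower, 9.2% higher), and day 7 had 1 lower and 2 higher, against 44.1% (12% lower, 32.1% higher). The median log2 difference of the 9 genes was -0.17 at day 0, where that of all genes was 0.06, and -0.52 at day 3, where that of all genes was -0.01. It was -0.48 and -0.16 at days 5 and 7 of the macrophage course (all genes -0.23 and 0.12), and -0.46 and 0.12 at days 5 and 7 of the granulocyte course (all genes -0.09 and 0.17).

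Median-of-ratios scaling centred all genes, moving their median to -0.01 at day 5 and -0.01 at day 7 of the macrophage course and to -0.02 at day 7 of the granulocyte course. It changed the split of calls over all genes to 1757 lower and 1305 higher at day 0 (main values 1222 and 1568), 2356 and 2235 at day 5 of the macrophage course (4532 and 611), 2574 and 2220 at day 7 of it (1495 and 3274), 2643 and 2132 at day 5 of the granulocyte course (2711 and 1095), and 2934 and 2429 at day 7 of it (1425 and 3825). Leaving out structural RNA and histone genes instead gave 1263 lower and 2563 higher at day 0, 2013 and 2315 at day 7 of the macrophage course, and 1829 and 3010 at day 7 of the granulocyte course. Of the 9 genes, 5 were called at day 7 of the granulocyte course with median-of-ratios scaling. Itgal (-0.50, adjusted p = 0.0255) and Itgb1 (-0.26, 0.00566) were added as lower by it.

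**Figure D2:**
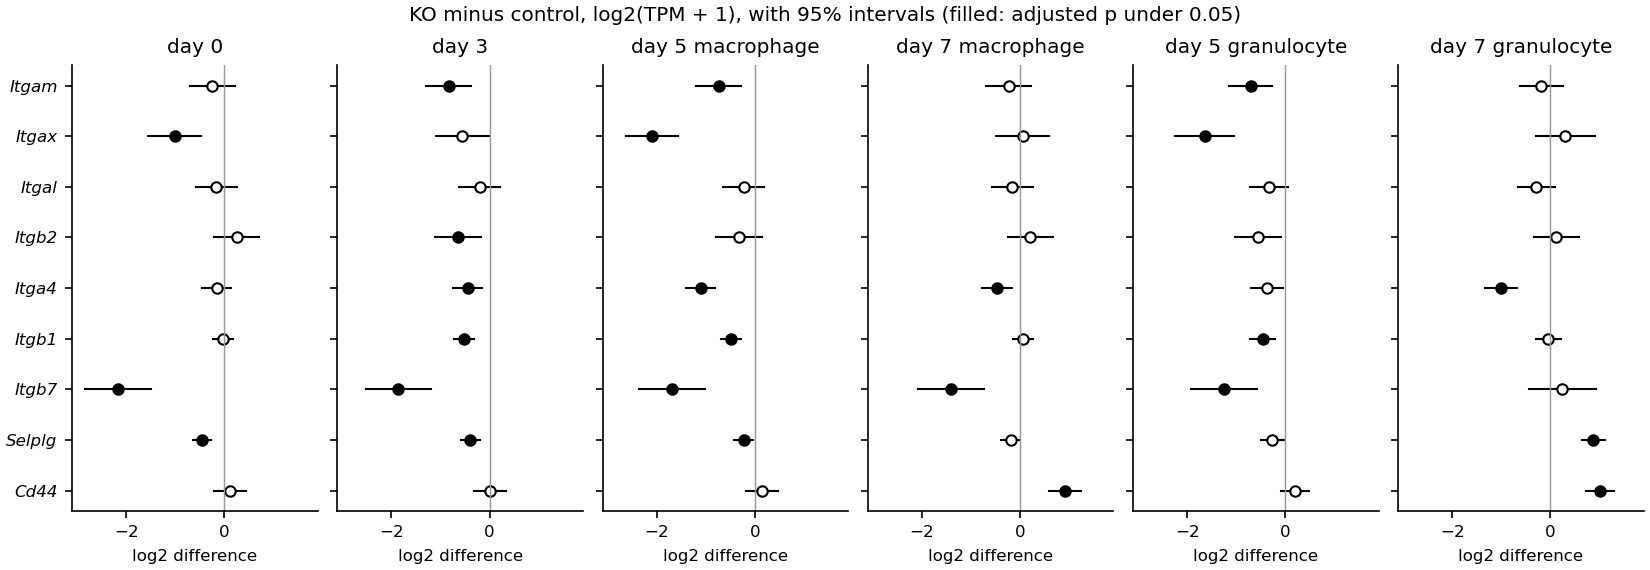
Knockout minus control log2(TPM + 1) of the 9 genes at 6 stages, with 95% limma intervals; filled points had an adjusted p under 0.05. Itgb7 lies left of 0 at the first 5 stages shown and Cd44 lies right of 0 at day 7 of both courses, while the small Selplg difference at day 5 of the macrophage course turns to 0.03 with median-of-ratios scaling.

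Among the β2 integrin genes, those of the CD11b/CD18 receptor of monocytes and neutrophils were lower in knockout cells at day 3. Itgam, the α chain of that receptor, had 152, 131 and 128 TPM in knockout libraries, against 280, 223 and 231 TPM in control libraries. Itgb2, its β chain, had 309, 255 and 257 TPM in knockout libraries, against 493, 391 and 401 TPM in control libraries. For both genes every knockout library lay below every control library. The log2 difference was -0.83 ± 0.22 (SE) for Itgam (adjusted p = 0.00346) and -0.64 ± 0.22 for Itgb2 (0.0201). The Itgb2 call ended without control replicate 1 (-0.54, adjusted p = 0.0882), knockout replicate 2 (-0.59, 0.0632) or knockout replicate 3 (-0.60, 0.0614). The 9 macrophage markers summed to 163 to 270 TPM in knockout and 659 to 887 TPM in control libraries at day 3, with 8 and 9 of 9 averaging at least 1 TPM and none at 0. The 8 neutrophil markers found summed to 126407 to 141258 TPM in knockout and 73233 to 89658 TPM in control libraries, all 8 averaging at least 1 TPM. Most of that sum was S100a8 and S100a9, at 12.1% to 13.5% of all TPM in knockout and 6.58% to 7.96% in control libraries. The sum therefore does not show the direction of the other neutrophil markers. The part of either marker set in the difference was not tested.

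Itgam was also lower in knockout libraries at day 5. In the macrophage course it had 166, 265 and 260 TPM in knockout libraries, against 372, 386 and 372 TPM in control libraries, with no overlap (-0.74 ± 0.22, adjusted p = 0.0108). Itgam in the granulocyte course had 139, 187 and 210 TPM in knockout libraries, against 286, 289 and 289 TPM in control libraries, again with no overlap (-0.71 ± 0.21, adjusted p = 0.0136). Knockout replicate 1 was the lowest in both. The macrophage markers summed to 369 to 449 TPM in knockout and 786 to 997 TPM in control libraries of the macrophage course (8 of 9 averaging at least 1 TPM in each), and to 215 to 381 TPM in knockout and 659 to 945 TPM in control libraries of the granulocyte course (8 and 9 of 9), with none at 0. The sum of the 8 neutrophil markers, all averaging at least 1 TPM, was higher in knockout libraries. It was 186101 to 244735 TPM against 54726 to 160326 TPM in the macrophage course and 183655 to 225675 TPM against 59110 to 156531 TPM in the granulocyte course. Most of it was S100a8 and S100a9, at 17.8% to 23.4% of all TPM in knockout and 4.93% to 14.5% in control libraries of the macrophage course. In the granulocyte course they took 17.7% to 21.6% and 5.49% to 14.4%. The sum therefore does not show the direction of the other neutrophil markers. The part of either marker set in the Itgam values was not tested. Without knockout replicate 1 the differences were -0.52 (adjusted p = 0.0769) and -0.54 (0.0806), and with median-of-ratios scaling the macrophage course gave -0.48 (0.0982). Itgb2 did not pass at day 5, with -0.32 on the macrophage (adjusted p = 0.251) and -0.56 on the granulocyte side (0.0596). The granulocyte course value passed after leaving out structural RNA and histone genes (-0.56, 0.0481), with a pseudocount of 5 TPM (-0.56, 0.0446) and with the 2 groups fitted alone (0.0216).

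At days 0 and 7 neither gene differed past the threshold. At day 0 Itgam had 8.47, 13.7 and 14.5 TPM in knockout libraries and 21.0, 14.3 and 9.61 TPM in control libraries, which overlapped (-0.24, adjusted p = 0.468). Itgb2 at day 0 had 22.5, 45.0 and 42.3 TPM in knockout libraries and 41.5, 31.6 and 19.2 TPM in control libraries, also overlapping (0.25, adjusted p = 0.458). By day 7 both were expressed highly in each genotype. Itgam had 198, 257 and 258 TPM in knockout libraries and 293, 306 and 239 TPM in control libraries of the macrophage course (-0.23, adjusted p = 0.42), and 289, 394 and 383 TPM against 384, 425 and 398 TPM in the granulocyte course (-0.19, 0.483). Itgb2 averaged 651 ± 67.4 TPM in knockout and 563 ± 61.3 TPM in control libraries of the macrophage course (SD; log2 difference 0.21, adjusted p = 0.481). Its granulocyte course averages were 686 ± 74.4 TPM in knockout and 629 ± 30.9 TPM in control libraries (SD; 0.12, adjusted p = 0.692, and -0.10 with median-of-ratios scaling). The 95% intervals of the 4 differences at day 7 lay between -0.69 and 0.67.

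Itgax, the α chain abundant on dendritic cells and some macrophages, was lower in knockout libraries at days 0 and 5. At day 5 of the macrophage course it had 13.6, 9.52 and 10.7 TPM in knockout libraries, against 59.8, 44.3 and 50.2 TPM in control libraries (-2.10 ± 0.26, adjusted p = 3.34e-06). The day 5 granulocyte course had 18.2, 11.6 and 12.6 TPM in knockout libraries, against 69.0, 38.0 and 35.7 TPM in control libraries (-1.65 ± 0.29, adjusted p = 0.000193). No knockout library reached the lowest control library in either course. Control replicate 1, the library pair low in S100a8 and S100a9, was the highest in both. At day 0 Itgax was near the detection limit, with 0.23, 0.23 and 0.30 TPM in knockout libraries against 1.66, 2.55 and 0.72 TPM in control libraries (-1.02 ± 0.26, adjusted p = 0.00693). That value depended on the pseudocount, with -2.15 at 0.1 TPM and -0.33 (adjusted p = 0.169) at 5 TPM, and without control replicate 2 it was -0.77 (0.0517). At day 3 Itgax had 13.1, 9.67 and 11.9 TPM in knockout and 16.6, 16.8 and 18.6 TPM in control libraries (-0.55, adjusted p = 0.0755), and it passed with a pseudocount of 5 TPM (-0.44, 0.0349), with median-of-ratios scaling (-0.59, 0.0449) and with the 2 groups fitted alone (0.00394).

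At day 7 the genotypes overlapped for Itgax. It had 5.49, 11.3 and 13.1 TPM in knockout and 11.8, 9.70 and 6.39 TPM in control libraries of the macrophage course (0.05, adjusted p = 0.892, and -0.09 with median-of-ratios scaling). Itgax in the granulocyte course had 14.0, 26.2 and 30.6 TPM in knockout and 19.6, 24.1 and 12.4 TPM in control libraries (0.30, adjusted p = 0.425). The sum of the 8 dendritic markers went the other way from Itgax at day 5 of the macrophage course. It was 321 to 450 TPM in knockout and 174 to 262 TPM in control libraries, with 5 and 4 of 8 averaging at least 1 TPM and Cd209a at 0 in the controls. In the granulocyte course at day 5, where Itgax was also lower, the sums overlapped, at 435 to 513 TPM in knockout and 440 to 514 TPM in control libraries. There 5 and 4 of 8 averaged at least 1 TPM and Xcr1 was at 0 in the knockouts. At day 0 the dendritic markers summed to 42.1 to 82.5 TPM in knockout and 105 to 286 TPM in control libraries, with 4 of 8 averaging at least 1 TPM in each. These sums do not show the direction of single markers. Their part in the Itgax values was not tested.

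Itgal, the α chain of the CD11a/CD18 receptor of lymphocytes and most leukocytes, showed no knockout difference past the threshold at any of the 6 stages with the main settings. Its differences lay between -0.33 (day 5 of the granulocyte course, adjusted p = 0.179) and -0.16 (day 7 of the macrophage course, 0.547), and at day 5 of the macrophage course the sign turned with median-of-ratios scaling (0.01). Its levels were low, 7.36 to 18.0 TPM in knockout and 5.81 to 21.1 TPM in control libraries. At day 7 of the granulocyte course it had 13.7, 18.0 and 17.9 TPM in knockout libraries, all below the 21.1, 19.9 and 19.6 TPM of control libraries (-0.29, adjusted p = 0.22). With median-of-ratios scaling it passed there as lower (-0.50, adjusted p = 0.0255).

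Itgb7, the β chain of the gut-homing α4β7 receptor and a chain abundant on mast cell progenitors, had the lowest adjusted p of the 9 genes at days 0 and 3. At day 0 it had 3.95, 7.07 and 9.02 TPM in knockout libraries, against 33.6, 48.4 and 20.3 TPM in control libraries (-2.17 ± 0.32, adjusted p = 5.37e-05). At day 3 it had 15.3, 15.4 and 17.1 TPM in knockout libraries, against 59.8, 59.4 and 62.1 TPM in control libraries (-1.86 ± 0.32, adjusted p = 7.03e-05). No library of one genotype reached the range of the other. The mast cell and basophil markers summed to 76.6 to 205 TPM in knockout and 183 to 723 TPM in control libraries at day 0 (6 of 7 averaging at least 1 TPM in each), and to 1104 to 1268 TPM in knockout and 1338 to 1815 TPM in control libraries at day 3 (7 of 7 in each), with none at 0. Their part in the Itgb7 difference was not tested.

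Itgb7 remained lower in knockout libraries at day 5 and at day 7 of the macrophage course. At day 5 it had 16.7, 13.0 and 14.1 TPM in knockout and 91.8, 34.9 and 37.1 TPM in control libraries of the macrophage course (-1.69 ± 0.32, adjusted p = 0.00034). In the granulocyte course at day 5 it had 12.9, 12.2 and 12.8 TPM in knockout and 52.9, 24.8 and 23.4 TPM in control libraries (-1.25 ± 0.33, adjusted p = 0.006). Control replicate 1 was far above the other 2 control libraries in both courses. The day 7 macrophage course had 21.4, 29.4 and 29.2 TPM in knockout libraries, against 86.0, 85.8 and 49.9 TPM in control libraries (-1.41 ± 0.32, adjusted p = 0.00177), and these 3 calls held without any single library. At these 3 stages the mast cell and basophil markers lay the other way or overlapped, summing to 580 to 778 TPM in knockout and 326 to 540 TPM in control libraries at day 5 of the macrophage course, to 1081 to 1941 TPM in knockout and 988 to 1126 TPM in control libraries at day 5 of the granulocyte course, and to 312 to 676 TPM in knockout and 72.8 to 511 TPM in control libraries at day 7 of the macrophage course, all 7 averaging at least 1 TPM. Other marker lists went with Itgb7. The eosinophil markers summed to 551 to 603 TPM in knockout and 866 to 1519 TPM in control libraries at day 5 of the macrophage course. At day 7 of it they summed to 29.6 to 59.9 TPM and 63.2 to 168 TPM. They overlapped at day 5 of the granulocyte course (725 to 767 TPM and 758 to 1605 TPM). The T and NK cell list, low throughout, was also lower in knockout libraries at all 3 stages. The part of any of these lists in the Itgb7 values at these stages was not tested. Itgb7 at day 7 of the granulocyte course had, in knockout libraries, 26.2, 59.2 and 68.8 TPM, on both sides of the 38.9, 39.2 and 42.0 TPM of control libraries (0.24 ± 0.33, adjusted p = 0.575, -0.02 without knockout replicate 3 and 0.66 without knockout replicate 1). The mast cell gene Cpa3 was also lowest in knockout replicate 1 there, with 731, 2872 and 3157 TPM in knockout libraries against 222, 225 and 339 TPM in control libraries. All 7 mast cell and basophil markers, Cpa3 among them, summed to 1977 to 6315 TPM in knockout and 1601 to 2118 TPM in control libraries, none at 0. These sums overlapped, so Cpa3, picked after its values were seen, does not stand for the list. The part of these markers in the Itgb7 values was not tested.

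Itga4, the α4 chain that anchors progenitors to stromal VCAM1, was lower in knockout libraries at 4 of 6 stages. The largest differences were at day 5 of the macrophage course, with 3.92, 5.13 and 5.23 TPM in knockout libraries against 10.9, 9.23 and 14.3 TPM in control libraries (-1.10 ± 0.14, adjusted p = 6.58e-06). The day 7 granulocyte course had 8.67, 6.28 and 6.09 TPM in knockout libraries, against 14.7, 15.7 and 14.4 TPM in control libraries (-1.01 ± 0.16, adjusted p = 4.49e-05). The genotypes did not overlap at either stage. Smaller differences were found at day 3, with 7.22, 9.42 and 9.17 TPM in knockout libraries against 10.8, 12.5 and 12.8 TPM in control libraries (-0.45, adjusted p = 0.0127), and at day 7 of the macrophage course, with 9.46, 8.79 and 8.42 TPM against 12.5, 12.2 and 13.4 TPM (-0.47, 0.013). They ended without knockout replicate 1 at day 3 (-0.34, 0.076) and without knockout replicate 3 at day 7 (-0.44, 0.052). Itga4 did not pass at day 0 (-0.16, adjusted p = 0.466) or at day 5 of the granulocyte course (-0.37, 0.0753), where it passed without knockout replicate 3 (-0.52, 0.0265).

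Itgb1, the β1 chain of receptors for fibronectin, collagen and VCAM1, was lower in knockout libraries at days 3 and 5. At day 3 it had 75.7, 77.8 and 72.2 TPM in knockout libraries, against 103, 108 and 113 TPM in control libraries (-0.52 ± 0.10, adjusted p = 0.000167). At day 5 of the macrophage course it had 67.4, 70.5 and 71.8 TPM in knockout libraries, against 108, 88.6 and 98.4 TPM in control libraries (-0.48 ± 0.10, adjusted p = 0.00058). The groups did not overlap, and median-of-ratios scaling gave -0.23 (adjusted p = 0.0117) at day 5. In the granulocyte course at day 5 it had 76.3, 77.9 and 83.1 TPM in knockout libraries, against 134, 101 and 96.5 TPM in control libraries (-0.46 ± 0.13, adjusted p = 0.0077), and without control replicate 1 it was -0.32 (0.0555). At days 0 and 7 the genotypes overlapped, with differences of -0.03 at day 0 (adjusted p = 0.871), 0.06 at day 7 of the macrophage course (0.654) and -0.04 at day 7 of the granulocyte course (0.811). The signs at day 0 and in the macrophage course turned under 1 or more scalings, to 0.02 without structural RNA and histone genes at day 0 and to -0.10 with median-of-ratios scaling at day 7.

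Selplg, which encodes PSGL1, changed direction over the series. At day 0 it had 56.6, 63.7 and 69.4 TPM in knockout libraries, all below the 87.5, 95.7 and 77.8 TPM of control libraries (-0.45 ± 0.09, adjusted p = 0.00113). At day 3 it had 99.8, 88.4 and 93.0 TPM in knockout libraries, all below the 133, 119 and 118 TPM of control libraries (-0.39 ± 0.09, adjusted p = 0.00125). At day 7 of the granulocyte course it had 250, 299 and 311 TPM in knockout libraries, all above the 150, 147 and 173 TPM of control libraries (0.87 ± 0.11, adjusted p = 5.69e-06). These 3 calls held under every alternative run and without any single library. Between them, at day 5 of the macrophage course, it had 86.8, 98.6 and 99.8 TPM in knockout and 107, 119 and 109 TPM in control libraries (-0.23 ± 0.09, adjusted p = 0.0479). That call rested on the setting: it turned to 0.03 (adjusted p = 0.864) with median-of-ratios scaling, it ended with the replicate block (-0.23, 0.0532), with no filter on low values (0.0539) and with the 2 groups fitted alone (0.0799), and leaving out any 1 of the 6 libraries gave adjusted p of 0.0511 to 0.197. It did not pass at day 7 of the macrophage course (-0.19, adjusted p = 0.0972) or day 5 of the granulocyte course (-0.26, 0.0785), where the first passed with median-of-ratios scaling (-0.35, 0.0135), both passed without structural RNA and histone genes (0.0052 and 0.0422), and the second passed without control replicate 1 (-0.35, 0.032).

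Cd44, which binds hyaluronan, was higher in knockout libraries at day 7 of both courses. In the macrophage course it had 247, 310 and 348 TPM in knockout libraries, against 149, 151 and 173 TPM in control libraries (0.92 ± 0.16, adjusted p = 0.000139). In the granulocyte course it had 229, 275 and 266 TPM in knockout libraries, against 117, 124 and 138 TPM in control libraries (1.01 ± 0.14, adjusted p = 7.6e-06). Every knockout library lay above every control library, knockout replicate 1 being the lowest of its group in both, and both calls held under every alternative run and without any single library. Before day 7 it did not pass, with 0.12 at day 0 (adjusted p = 0.624), 0.01 at day 3 (0.954, -0.03 with median-of-ratios scaling), 0.16 at day 5 of the macrophage course (0.436) and 0.19 at day 5 of the granulocyte course (0.293). With median-of-ratios scaling the difference at day 5 of the macrophage course was 0.41 and passed (0.0475). At day 7 the 6 megakaryocyte markers, all averaging at least 1 TPM, summed to 1818 to 2262 TPM in knockout and 417 to 440 TPM in control libraries of the macrophage course, and to 1228 to 1675 TPM in knockout and 297 to 498 TPM in control libraries of the granulocyte course. Their part in the Cd44 and Selplg values was not tested.

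Because integrin chains work in pairs, the ratio of subunit transcripts within each library was also described, a measure that scaling between libraries does not change. Itgam per Itgb2 was lower in knockout libraries at day 0 (0.305 to 0.377, against 0.454 to 0.506 in control libraries), day 3 (0.492 to 0.511 against 0.569 to 0.578) and day 5 of the macrophage course (0.353 to 0.497 against 0.536 to 0.637). It was also lower at day 7 of the macrophage course (0.345 to 0.380 in knockout libraries, against 0.485 to 0.510 in control libraries) and of the granulocyte course (0.482 to 0.549 against 0.618 to 0.660). At these 5 stages no knockout library reached the lowest control library, although at days 0 and 7 neither gene passed on its own. At day 5 of the granulocyte course the ranges overlapped (0.398 to 0.498 in knockout libraries and 0.444 to 0.566 in control libraries). The sum of Itgam, Itgax and Itgal per Itgb2 lay apart at all 6 stages, for example at 0.368 to 0.407 in knockout libraries against 0.510 to 0.544 in control libraries at day 7 of the macrophage course. These ratios were compared by their ranges alone, because 3 libraries a group allow no exact permutation p under the threshold. How often the ratios of other gene pairs lie apart was not counted, so the separation is not shown to be particular to integrin genes.

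Itga4 per Itgb1 was 0.049 to 0.0891 in knockout libraries, against 0.106 to 0.144 in control libraries, at day 7 of the granulocyte course, and the ranges were also apart at days 5 and 7 of the macrophage course. At day 3 it overlapped, at 0.0954 to 0.127 in knockout and 0.104 to 0.116 in control libraries. Itgb7 per Itgb1 was 0.0592 to 0.147 in knockout libraries, against 0.363 to 0.751 in control libraries, at day 0, and 0.199 to 0.237 against 0.549 to 0.579 at day 3. Among the 3 α chains of β2, Itgam made up 46.4% to 58.8% of the summed TPM in knockout and 45.5% to 56.9% in control libraries at day 0, and 92.5% to 93.8% in knockout and 93.1% to 95.1% in control libraries at day 7 of the macrophage course. Itgal made up 40% to 52.8% in knockout and 38.5% to 51% in control libraries at day 0, and Itgax 0.778% to 1.37% in knockout and 3.41% to 8.83% in control libraries, with no overlap for Itgax.

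**Figure D3:**
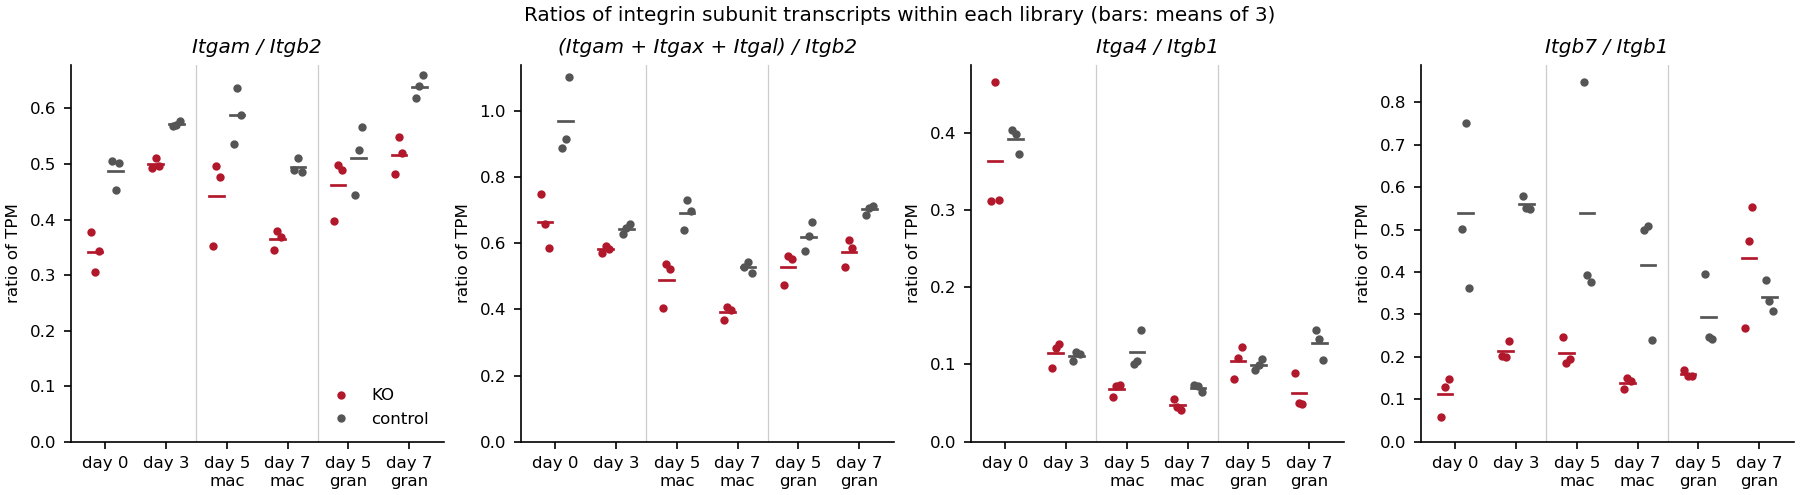
Ratio of subunit TPM within each library at each stage, knockout (red) left of control (grey); points are libraries and bars are means of 3. Itgam per Itgb2 is lower in knockout libraries with no overlap at all stages but day 5 of the granulocyte course, and Itgb7 per Itgb1 is lower at all stages but day 7 of that course.

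Over time Itgam, Itgb2 and Itgax rose strongly from day 0, while Itga4 fell. Itgam averaged 12.2 ± 3.28, 137 ± 13.1 and 238 ± 34.1 TPM at days 0, 3 and 7 of the macrophage course in knockout cells, and 15.0 ± 5.70, 245 ± 30.8 and 279 ± 35.5 TPM in control cells (SD, n = 3). From day 0 to day 3, 7 of the 9 genes rose and 1 fell in each genotype, against 58.8% of all genes called in knockout cells (22.8% higher at day 3, 35.9% lower) and 73% in control cells (33.3% higher, 39.6% lower). Itgam rose by 3.41 in knockout and 4 in control cells on the log2 scale, Itgb2 by 2.93 and 3.82, and Itgax by 3.32 and 2.86, while Itga4 fell by 1.25 and 0.96 (largest adjusted p of these 8, 4.46e-06). The Itgax values depended on the pseudocount: with 5 TPM they were 1.65 in knockout and 1.76 in control cells, so that the order of the genotypes turned, and with 0.1 TPM the rise in knockout cells was 5.04. Itgal did not pass, with -0.02 in knockout (adjusted p = 0.944) and 0.02 in control cells (0.95). The rise of Itgb1 in knockout cells (0.30, adjusted p = 0.0124) ended without structural RNA and histone genes (0.11, 0.221) or without knockout replicate 2 at day 0 (0.23, 0.0721). The rise of Itgb7 in control cells (0.89, adjusted p = 0.0173) ended without control replicate 3 at day 0 (0.57, 0.131).

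By day 7 of the macrophage course 7 of 9 genes had risen and 2 had fallen in each genotype, against 71.6% of all genes called in knockout cells (35.2% higher, 36.4% lower) and 73.5% in control cells (33.6% higher, 39.8% lower). Itgb1 rose by 1.63 in knockout and 1.53 in control cells and Cd44 by 2.70 and 1.9. Itgal fell by 0.47 in both (adjusted p = 0.0421 in knockout and 0.0396 in control cells). The Itgal calls ended with median-of-ratios scaling (-0.44, 0.0691 in knockout and -0.37, 0.119 in control cells), without knockout replicate 2 at day 0 (-0.22) or any knockout library at day 7 (-0.45 to -0.49), and without control replicates 1 or 2 at day 0 (-0.37 and -0.48) or control replicate 3 at day 7 (-0.23). Without structural RNA and histone genes the fall in knockout cells was larger, at -0.79 (0.00177). By day 7 of the granulocyte course 8 genes had risen and 1 had fallen in knockout cells, against 73.8% of all genes (31.3% higher, 42.4% lower), and 7 had risen and 1 had fallen in control cells, against 76% (28.6% higher, 47.3% lower). Itgal rose there, by 0.56 in knockout (adjusted p = 0.00979) and 0.68 in control cells (0.00229). The call in knockout cells ended without knockout replicate 1 at day 0 (0.37, 0.0862) or without structural RNA and histone genes (0.21, 0.285). The day 0 libraries serve both courses, so these changes share their starting values. Over all genes, the split of calls moved with scaling in control cells of the granulocyte course, at 3409 higher and 5636 lower (4729 and 4443 with median-of-ratios scaling), and from day 0 to day 3 in knockout cells, at 2727 higher and 4297 lower (3549 and 3452). Without structural RNA and histone genes the splits in knockout cells were 2167 higher and 6242 lower at day 3, 3167 and 6382 at day 7 of the macrophage course (main values 4211 and 4345), and 2759 and 6903 at day 7 of the granulocyte course (3732 and 5050).

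The difference in change between genotypes was tested as an interaction. From day 0 to day 3, Itgb2 rose less in knockout than in control cells (difference of log2 changes -0.89, adjusted p = 0.0356) and so did Itgb1 (-0.49, 0.0107), 2 of 9 genes, against 32.3% of all genes (17.3% lower, 15% higher). The Itgb2 interaction ended without any 1 of 6 libraries, namely control replicate 3 or knockout replicates 2 or 3 at day 0 (-0.59, -0.71 and -0.76), or control replicate 1 or knockout replicates 2 or 3 at day 3 (-0.78, -0.84 and -0.85), with adjusted p of 0.0734 to 0.116. From day 0 to day 7 of the macrophage course 1 of 9 genes passed, against 11.8% of all genes (7.04% higher, 4.75% lower): Cd44 rose more in knockout cells (0.80, adjusted p = 0.0218). The split over all genes, 841 higher and 568 lower, was 942 and 963 with median-of-ratios scaling and turned to 647 and 1130 without structural RNA and histone genes. The Cd44 call ended without any 1 of 7 libraries, control replicates 1 or 2 or knockout replicate 1 at day 0, or control replicates 1 or 2 or knockout replicates 2 or 3 at day 7, at 0.69 to 0.77 with adjusted p of 0.0539 to 0.0764. Itgax in that course had 1.07 (adjusted p = 0.0613), and it passed with a pseudocount of 0.1 TPM (2.20, 0.00442), without structural RNA and histone genes (1.12, 0.0466), and without control replicate 3 at day 0, control replicate 1 at day 7 or knockout replicate 1 at day 7 (1.35, 1.24 and 1.41).

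The granulocyte course had 5 of 9 genes past the threshold, 4 higher and 1 lower, against 19.2% of all genes (12.4% higher, 6.77% lower; 1475 and 806 genes, or 1439 and 1660 with median-of-ratios scaling and 1165 and 1331 without structural RNA and histone genes). Itgb7 rose more in knockout than in control cells (2.41 ± 0.46, adjusted p = 0.000969), as did Selplg (1.32 ± 0.16, 1.09e-05), Cd44 (0.89 ± 0.19, 0.00245) and Itgax (1.31 ± 0.41, 0.0285), and Itga4 fell more (-0.85 ± 0.22, 0.0104). Itgb7 averaged 6.68 ± 2.56 and 51.4 ± 22.4 TPM at days 0 and 7 in knockout cells and 34.1 ± 14.1 and 40.1 ± 1.72 TPM in control cells (SD). The Itgax value was 2.46 with a pseudocount of 0.1 TPM and 0.58 (adjusted p = 0.215) with 5 TPM, and the call ended without control replicates 1 or 2 or knockout replicate 2 at day 0 (1.07 to 1.28 and 1.3), or control replicate 3 or knockout replicates 2 or 3 at day 7 (1.06, 1.21 and 1.10), with adjusted p of 0.0528 to 0.0961. The other 4 calls held without any single library.

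The courses were compared within each genotype. At day 5, 2 days after the cultures were divided, 0 of 9 genes passed in control cells with limma, where 3.01% of all genes were called (0.961% higher, 2.05% lower; 111 and 237 genes, or 212 and 287 with median-of-ratios scaling). Only Itgam had an unadjusted p under 0.05, at 0.39 higher in the macrophage course (limma adjusted p = 0.35). Its control libraries did not overlap, with 372, 386 and 372 TPM in the macrophage against 286, 289 and 289 TPM in the granulocyte course. That fit did not use the pairing of replicate numbers between courses. In knockout cells 2 passed, against 18.1% of all genes (3.21% higher, 14.9% lower): Itgb2 was higher in the macrophage course (469, 534 and 544 TPM against 349, 377 and 428 TPM in the granulocyte course, 0.42, adjusted p = 0.0155) and Itga4 was lower (3.92, 5.13 and 5.23 TPM against 6.22, 8.53 and 10.2 TPM, -0.68, 0.00596, and -0.44, 0.0117 with a pseudocount of 5 TPM). The split over all genes in knockout cells, 371 higher and 1719 lower, turned to 1127 and 793 with median-of-ratios scaling. The Itgb2 call ended without macrophage course replicate 2 (0.40, 0.0649) or 3 (0.38, 0.0709) or granulocyte course replicate 1 (0.36, 0.065) or 2 (0.41, 0.0595).

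At day 7, 5 of 9 genes differed between the courses in each genotype, 1 higher and 4 lower, against 50.2% of all genes called in knockout cells (35.3% higher, 14.9% lower) and 43.8% in control cells (34% higher, 9.81% lower). With median-of-ratios scaling the split over all genes was 2952 higher and 2521 lower in knockout cells (main values 4080 and 1718) and 2190 and 1870 in control cells (3928 and 1133). Itgal was lower in the macrophage course, with 7.51, 7.36 and 7.78 TPM against 13.7, 18.0 and 17.9 TPM in the granulocyte course of knockout cells (-1.03 ± 0.20, adjusted p = 0.000306). In control cells it had 10, 10.7 and 5.81 TPM in the macrophage course against 21.1, 19.9 and 19.6 TPM in the granulocyte course (-1.15 ± 0.20, adjusted p = 0.000174). The courses did not overlap in either genotype. Itgb1 was higher in the macrophage course, by 0.72 in knockout (adjusted p = 0.000166) and 0.62 in control cells (0.000959). Itgam and Itgax were lower in it, with differences of -0.58 and -1.17 in knockout and -0.53 and -0.93 in control cells (largest adjusted p = 0.0277). The Itgam calls ended without macrophage course replicate 1 in knockout cells (-0.45, 0.0509) and without macrophage course replicate 3 (-0.42, 0.0948) or granulocyte course replicate 2 (-0.49, 0.0596) in control cells. The Itgax call in control cells ended without macrophage course replicate 3 (-0.71, 0.144) or granulocyte course replicate 1 (-0.87, 0.0869) or 2 (-0.73, 0.128). Cd44 in control cells, at 0.32 (adjusted p = 0.0744), passed with the replicate block (0.0121), the numbers pairing the courses there. Itgb7 did not pass in either genotype and had opposite signs, -0.83 in knockout (adjusted p = 0.0623) and 0.83 in control cells (0.0688). It passed in knockout cells with median-of-ratios scaling (-0.97, 0.0178) and without granulocyte course replicate 1 (-1.24, 0.00739). It passed in control cells with the groups fitted alone (0.0215), without structural RNA and histone genes (0.88, 0.0459) and without macrophage course replicate 3 (1.08, 0.0423).

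Selplg was the gene whose knockout difference itself differed between the courses at day 7. Its macrophage minus granulocyte course difference was -1.44 in knockout (adjusted p = 4.65e-09) and -0.38 in control cells (0.0065; -0.57 with median-of-ratios scaling). The knockout difference in the macrophage course minus that in the granulocyte course was -1.06 ± 0.15 (adjusted p = 0.000232, 1 of 9 genes, lower, against 4.28% of all genes, 2.45% lower and 1.84% higher). Itgb7 had -1.65 ± 0.51 (adjusted p = 0.0762) and passed with median-of-ratios scaling (-1.61, 0.042), without control replicate 3 of the macrophage course (-1.91, 0.0405) and without knockout replicate 1 of the granulocyte course (-2.07, 0.00804).

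**Figure D4:**
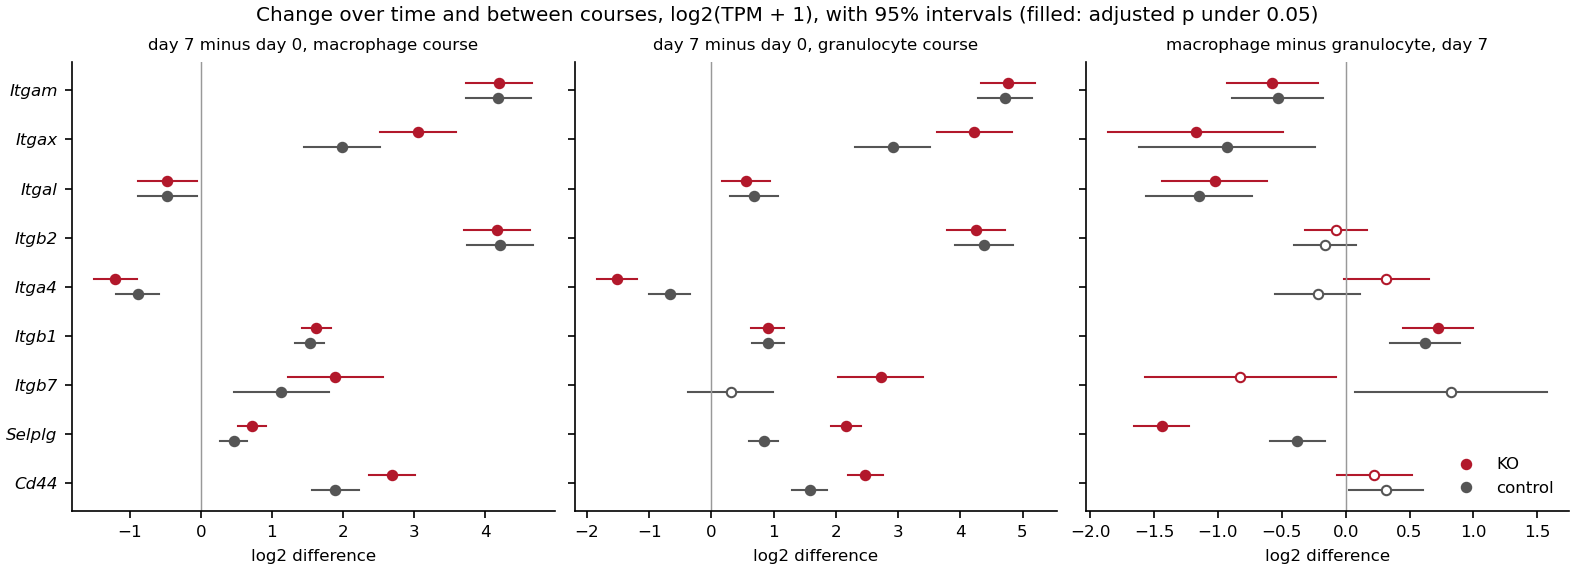
log2 change of the 9 genes from day 0 to day 7 in each course and macrophage minus granulocyte course at day 7, knockout (red) above control (grey), with 95% limma intervals; filled points had an adjusted p under 0.05. Itgam and Itgb2 rise by more than 4 in both genotypes and courses. The intervals of the genotypes lie apart for Selplg, Itgb7, Cd44, Itgax and Itga4 in the granulocyte course and for Cd44 in the macrophage course. Between courses they lie apart for Selplg and for Itgb7, which did not pass there in either genotype.

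The order of groups for each gene was described from the means. Itgb1 was highest at day 7 of the macrophage course, with 190 ± 16.0 TPM in knockout and 183 ± 21.6 TPM in control cells, which overlapped, and both lay apart from the next group, control cells at day 7 of the granulocyte course (119 ± 17.3 TPM, SD). Selplg was highest in knockout cells at day 7 of the granulocyte course (287 ± 32.3 TPM), apart from the next group, control cells of the same stage (156 ± 14.4 TPM). Cd44 was highest in knockout cells at day 7 of the macrophage course (302 ± 51.0 TPM) and next in those of the granulocyte course (257 ± 24.4 TPM), which overlapped with each other. Itgax was highest in control cells at day 5 (51.4 ± 7.83 TPM in the macrophage and 47.6 ± 18.6 TPM in the granulocyte course, overlapping). Itgb7 was lowest in knockout cells at day 0, and Itga4 in knockout cells at day 5 of the macrophage course, each apart from the next group.

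The genes most like each of the 9 in pattern were taken by Pearson's r of mean log2(TPM + 1) over the 12 groups, among 11826 genes kept in both courses, as a description of means that share libraries. Itgam was closest to Lilrb4a, an inhibitory receptor of myeloid cells (r = 0.991), and to Itgb2 (0.990). Itgb2 was closest to Cyba, a subunit of the phagocyte NADPH oxidase (0.996), and Lilrb4a (0.994). Cd44 was closest to Msn, which encodes moesin, a linker of CD44 to the actin cytoskeleton (0.985), and Ski, a repressor of TGFβ signalling (0.984). Itgb1 was closest to Dync1i2, a dynein chain (0.987), and Dennd4c (0.982). Itga4 was closest to Nsmce1 (0.971) and the nucleoside transporter gene Slc28a2 (0.950), and Itgax to the phosphatase gene Ptpn12 (0.967) and the prostacyclin receptor gene Ptgir (0.965). The closest values were lower for Selplg (Sema6b, 0.940, and Mboat7, 0.927), Itgb7 (Arfgap3 and Smim7, both 0.916) and Itgal (Agtrap, 0.912, and Mtus1, 0.882).

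Other genes of the same pathways were taken from 5 lists, and the log2 difference and limma adjusted p are given for up to 3 tested members with the smallest p at each stage. The list counts stand against 13.1% of all genes called higher and 10.2% lower at day 0, 26.5% and 26.7% at day 3, 5.11% and 37.9% at day 5 and 27.4% and 12.5% at day 7 of the macrophage course, and 9.2% and 22.8% at day 5 and 32.1% and 12% at day 7 of the granulocyte course. Of 19 other integrin genes 8 were tested. At day 0, 1 was higher and 1 lower in knockout libraries: the αv gene Itgav (0.44, 0.0329) and Itga2 (-0.35, 0.0345) passed, and the platelet integrin gene Itga2b had -0.70 (0.0747). Itgav ended without control replicates 2 or 3 or knockout replicate 2 (0.45, 0.32 and 0.29) and with median-of-ratios scaling (0.37, 0.0571), and Itga2 without control replicates 1 or 2 or knockout replicates 1 or 2 (-0.27 to -0.35) and with a pseudocount of 5 TPM (-0.09, 0.16). At day 3, 7 of 8 were lower, led by the collagen receptor gene Itga2 (-1.61, 2.34e-09), the β3 gene Itgb3 (-1.62, 2.35e-07) and the β5 gene Itgb5 (-1.30, 1.15e-06), with a median of -1.35 against -0.01 for all genes. Itgb3 had 41.1, 34.3 and 36.3 TPM in knockout libraries, against 98.9, 121 and 131 TPM in control libraries. The megakaryocyte markers, of which Itga2b is one, summed to 279 to 615 TPM in knockout and 1369 to 2375 TPM in control libraries at day 3, all 6 averaging at least 1 TPM, and their part in these values was not tested.

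Of the other integrin genes 7 were again lower at day 5 of the macrophage course, with Itgb3 at -0.75 (0.00153), Itgb5 at -0.68 (0.00171) and Itga5, the fibronectin receptor α chain, at -0.48 (0.0167). Itga5 ended with median-of-ratios scaling (-0.25, 0.17), without control replicate 3 (-0.37) and without knockout replicate 2 (-0.45). The granulocyte course had 4 lower at day 5, led by Itgb5 (-1.45, 1.08e-06), the collagen receptor gene Itga1 (-1.26, 3.49e-06) and Itga5 (-0.54, 0.00747). Day 7 of the macrophage course had 1 higher, Itga2b (0.92, 0.013), and 1 lower, Itga1 (-0.72, 0.0489), and Itga5 had 0.38 (0.0577). Itga2b ended without control replicate 3 or knockout replicates 1 or 3 (0.64, 0.75 and 0.80). Itga1 ended without any library but control replicate 3 (-0.45 to -0.79; -1.16 without that one). Day 7 of the granulocyte course had 3 higher and 3 lower, with Itga2b at 2.12 (1.34e-06), Itgb3 at 1.33 (4.73e-05) and Itga1 at -1.04 (2.79e-05). Itga2b had 99.1, 165 and 234 TPM in knockout libraries there, against 29.8, 29.8 and 48.9 TPM in control libraries, with no overlap.

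Of 31 genes of integrin activation and its links to actin, all were tested. At day 0, 4 were higher and 3 lower in knockout libraries, led by the Src family kinase gene Lyn (0.61, 0.00032), the filamin gene Flna (0.32, 0.0179) and Cyth1, a regulator of β2 integrins (-0.35, 0.0276). Flna ended without control replicates 2 or 3 or knockout replicate 2 (0.32, 0.24 and 0.23) and with median-of-ratios scaling (0.24, 0.0884), and Cyth1 without control replicates 1 or 2 or any knockout library (-0.30 to -0.36). At day 3, 3 were higher and 9 lower, led by the β-parvin gene Parvb (-2.03, 1.19e-09), Rap1b, a small GTPase that activates integrins (-0.77, 5.16e-06), and the PINCH gene Lims1 (-0.57, 6.29e-05). Day 5 of the macrophage course had 1 higher and 16 lower of 31, where 5.11% of all genes were higher and 37.9% lower, led by Parvb (-1.28, 7.78e-07), Rap1b (-0.54, 0.000431) and the γ-parvin gene Parvg (-0.47, 0.000574; -0.21, 0.0649 with median-of-ratios scaling). The median there was -0.29, against -0.23 for all genes. There were 6 higher and 8 lower at day 7 of that course, with Parvg at -0.72 (8.3e-06), the focal adhesion kinase gene Ptk2 at 1.0 (7.73e-05) and Sharpin, an inhibitor of integrins, at 0.40 (0.000457). The granulocyte course had 1 higher and 9 lower at day 5, with Parvb (-0.84, 7.52e-05) and Cyth1 (-0.55, 0.00102), and 8 higher and 4 lower at day 7, with Ptk2 (1.19, 7.28e-06) and Rassf5, which carries Rap1 signals to integrins (0.69, 0.000152).

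Among ligands of these receptors 9 of 13 genes were tested. At day 0, 1 was higher and 3 lower in knockout libraries, with the β2 integrin ligand gene Icam2 at -0.67 (1.46e-05), the complement gene C3 at 1.70 (0.000291) and Icam4 at -0.67 (0.00665; -0.73, 0.104 with a pseudocount of 0.1 TPM). Vcam1, which encodes the α4 ligand, led at 4 stages: day 3 (-2.67, 1.67e-07), day 5 of the macrophage course (-2.14, 5.64e-06), and days 5 and 7 of the granulocyte course (-1.66, 3.14e-05, and -2.11, 1.55e-06). At day 3 it had 0.88, 1.39 and 1.33 TPM in knockout libraries, against 11.4, 13.7 and 13.9 TPM in control libraries. Counts were 2 higher and 5 lower of 9 at day 3, where 26.5% of all genes were higher and 26.7% lower, with the junctional adhesion gene F11r (-1.31, 7.3e-06) and the osteopontin gene Spp1 (-1.60, 1.52e-05) after Vcam1. They were 2 higher and 3 lower at day 5 of the macrophage course, with F11r (-1.18, 5.22e-05) and Icam1 (0.84, 0.000377), and 3 higher and 2 lower at day 7, with Icam2 (-0.76, 2.11e-06), Icam1 (1.29, 4.94e-06) and the thrombospondin gene Thbs1 (2.91, 0.000425). The granulocyte course had 1 higher and 4 lower at day 5, with Spp1 (-1.25, 9.2e-05) and C3 (1.08, 0.00195), and 2 higher and 2 lower at day 7, with C3 (1.68, 2.08e-05) and Icam2 (-0.59, 0.000238).

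Selectin genes and the enzymes that modify PSGL1 formed a list of 12, of which 11 were tested. Tpst1, which encodes a tyrosylprotein sulfotransferase of the kind that sulfates PSGL1 for P-selectin, was higher in knockout libraries at day 0 (0.88, 8.44e-05), day 3 (1.44, 6.68e-08), days 5 and 7 of the macrophage course (1.33, 4.21e-07, and 0.88, 5.74e-05) and day 5 of the granulocyte course (0.63, 0.00275). At day 3 it had 8.55, 8.77 and 8.54 TPM in knockout libraries, against 2.33, 2.85 and 2.47 TPM in control libraries. At day 0, 1 gene was higher and 3 lower, the fucosyltransferase gene Fut7 at -0.73 (0.00123) and the sialyltransferase gene St3gal3 at -0.34 (0.0151) among them, and St3gal3 ended without control replicate 2 (-0.25) or knockout replicate 2 (-0.29). At day 3, 1 was higher and 4 lower, with Gcnt1, which starts the branch that carries selectin-binding sugars (-0.87, 1.03e-05), and the P-selectin gene Selp (-1.90, 3.36e-05). Day 5 of the macrophage course had 1 higher and 4 lower, with St3gal3 (-0.49, 0.000493) after Tpst1. Day 7 of it had 3 higher and 0 lower, with B4galt1 (0.46, 0.0127) and St3gal6 (0.46, 0.0414). B4galt1 ended without control replicate 1 (0.43) or knockout replicates 2 or 3 (0.38 and 0.39), and St3gal6 without any library but knockout replicate 1 (0.40 to 0.49) and with median-of-ratios scaling (0.37, 0.072).

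That list had 2 higher and 1 lower at day 5 of the granulocyte course, with the sialyltransferase gene St3gal4 (0.39, 0.0076) after Tpst1. At day 7, where Selplg was higher in knockout libraries, 5 of 11 were higher and 0 lower, where 32.1% of all genes were higher and 12% lower (2429 higher of 11854 with median-of-ratios scaling), with a median of 0.31 against 0.17 for all genes. They were led by St3gal4 (1.0, 4.11e-07), St3gal6 (1.57, 2.74e-05) and Gcnt1 (0.93, 0.000918). St3gal4 had 54.7, 70.0 and 66.4 TPM in knockout libraries, against 30.7, 32.1 and 30.5 TPM in control libraries, with no overlap.

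Of 14 genes that link CD44 to actin or cut it or its ligand, 9 were tested. At day 0, 0 were higher and 1 lower, Mmp14, the membrane protease that cleaves CD44 (-1.57, 3.24e-06), while moesin (Msn) had 0.39 (0.055) and radixin (Rdx) had -0.22 (0.0722). Msn passed without structural RNA and histone genes (0.44, 0.0181), without replicate 1 of the control (0.56) or of the knockout (0.50), and Rdx with median-of-ratios scaling (-0.30, 0.00371) and without control replicate 3 (-0.28). At day 3, 1 was higher and 3 lower, led by the hyaluronidase gene Hyal1 (-1.59, 1.26e-06), the ezrin-binding gene Slc9a3r1 (0.41, 0.000215) and Mmp14 (-0.74, 0.00181). Day 5 of the macrophage course had 0 higher and 5 lower, with Rdx (-0.72, 2.44e-06), Hyal1 (-1.36, 1.83e-05) and the hyaluronan receptor gene Hmmr (-0.62, 0.000178), and at day 7, 1 was higher and 3 lower, with Hyal1 (-1.62, 2.86e-06), Hmmr (-0.56, 0.000485) and Msn (0.55, 0.00497). The granulocyte course had 0 higher and 6 lower at day 5, with Hyal1 (-1.04, 0.000134), Mmp14 (-0.94, 0.00102) and Rdx (-0.41, 0.00167), and at day 7, 2 were higher and 3 lower, with Mmp14 (-3.47, 7.18e-11), Hyal1 (-1.51, 1.53e-06) and Hmmr (-0.77, 0.000161). Mmp14 had 1.35, 1.76 and 2.17 TPM in knockout libraries there, against 23.1, 30.6 and 35.6 TPM in control libraries, the lowest adjusted p of any gene named at that stage. The differences of low genes depended on the pseudocount, Hyal1 at day 3 for example being -3.52 with 0.1 TPM and -0.53 with 5 TPM, and Vcam1, Parvb and Tpst1 kept their calls under both. With median-of-ratios scaling some called values at day 5 of the macrophage course were closer to 0 by over 1.5 times, namely Itgb5 (-0.44), Rap1b (-0.28), St3gal3 (-0.29), Rdx (-0.46) and Hmmr (-0.37), as were B4galt1 (0.30) and Sharpin (0.24) at day 7 of it.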

How the data were processed

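Total RNA of cultured bone marrow cells was sequenced after stranded KAPA library preparation, per the labels' protocols. Each value is the TPM of a gene, deposited by the authors in 2 tables, 1 per course, of 24411 genes. The tables share 12 library columns (days 0 and 3), which hold equal values. The submitters' processing notes name RSEM, DESeq2 1.38.3 and the build mm10. No annotation or strand setting of counting is stated there. TPM keeps no depth, so no counting interval can be given, and a large rise of some genes lowers the TPM of the rest. Of all genes 10289 to 11226 reached 1 TPM in a library, replicates correlated across genes at 0.989 to 0.998 (Pearson), Rpph1 with Rmrp took 2.29% to 16.1% of the TPM and histone genes 3.63% to 17.4%.

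Groups came from the labels. Values of log2(TPM + 1) were modelled in limma 3.58.1 (R 4.3.3) by group, with trended, moderated variances, using all 24 libraries from 1 course, or from days 5 and 7 to compare courses. Differences are on that scale and understate those of low genes. Genes with at least 1 TPM in 3 libraries were kept (11953, 11905 and 11553 in the 3 fits). The p-values of 20 comparisons were adjusted over all genes kept (Benjamini-Hochberg, threshold 0.05). The 9 genes, the 5 pathway lists and the 10 marker lists were chosen with earlier results of these data known. All 9 genes are described in the knockout comparisons, and in other comparisons where called or discussed. Each list gives its 3 members with the smallest p, except that a few are not reported here, and each gene the 2 genes most alike in pattern. Cpa3, the list genes whose levels are given in every library, and Vcam1, Parvb and Tpst1 under other pseudocounts were picked after their values were seen. Other settings tried were a pseudocount of 0.1 or 5 TPM, every gene kept, a 5 TPM filter, scaling by median of ratios (factors 0.809 to 1.22), removal of 87 structural RNA and histone genes, the groups of a contrast alone, a replicate block, and leaving out each library. Replicate numbers were checked as pairs by correlating deviations from group means. Numbers were said to pair where all 3 correlations were above 0.1, a cut set by choice. Between knockout and control they paired at day 5 of the macrophage course (0.302, 0.184 and 0.274) and at no other stage by that cut. Day 5 of the granulocyte course had 0.298, 0.169 and 0.0613. Between courses of the same genotype and day they paired (lowest 0.274). The scripts were tested on simulated data. Sequences are RefSeq's (GRCm38.p6).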

Additional observations from a re-analysis of the deposited data

Results flagged for a closer look

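These results were flagged because the change over time, or the knockout difference, differed between 2 groups by a test of the difference itself in limma. From day 0 to day 3 the change in knockout minus that in control cells was -0.89 for Itgb2 (-0.889) and -0.49 for Itgb1 (-0.487). From day 0 to day 7 of the macrophage course it was 0.80 for Cd44. From day 0 to day 7 of the granulocyte course it was 1.31 for Itgax (1.312), -0.85 for Itga4 (-0.849), 2.41 for Itgb7 (2.409), 1.32 for Selplg (1.322) and 0.89 for Cd44 (0.893). The knockout difference of Selplg at day 7 in the macrophage course minus that in the granulocyte course was -1.06 (-1.061). These were 2 of 9 genes from day 0 to day 3, against 32.3% of all genes, and 1 of 9 in the macrophage course, against 11.8%. Neither count was above that share. The granulocyte course had 5 of 9, against 19.2%, and the last comparison 1 of 9, against 4.28%. The calls of Itgb2, of Cd44 in the macrophage course and of Itgax ended without certain single libraries. Itgb7, Itgax and Selplg were lower in knockout libraries at day 0; at day 7 of the granulocyte course Selplg was higher in them, and Itgb7 and Itgax overlapped with control libraries. Groups of 3 libraries were too small for a test of single outlying libraries.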

How the results depend on the processing

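Calls rest on 3 libraries a group, depth is unknown, and values under about 1 TPM depend on the pseudocount. With median-of-ratios scaling 5 of 9 genes passed at day 7 of the granulocyte course and 2 in the difference of knockout effects between courses. In the interaction from day 0 to day 3, 1 gene passed with no filter and 1 with the groups alone. In that of the macrophage course 2 passed with a pseudocount of 0.1 TPM and 2 without structural RNA and histone genes. Leaving out 1 library gave 1 to 3 genes in the interaction from day 0 to day 3, 0 to 2 in that of the macrophage course, 1 to 3 between courses in knockout cells at day 5, 3 to 5 in control cells at day 7, and 1 to 2 in the difference of knockout effects. For knockout against control at day 5 of the macrophage course it gave 4 to 5 genes, against 6 with all libraries.

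Of values that changed sign, 1 was a call, Selplg at day 5 of the macrophage course (0.027 with median-of-ratios scaling); the cause was not tested. The others did not pass. With that scaling the knockout difference was -0.027 for Cd44 at day 3, 0.012 for Itgal at day 5 of the macrophage course, -0.094 for Itgax and -0.098 for Itgb1 at day 7 of it, and -0.104 for Itgb2 at day 7 of the granulocyte course. Without structural RNA and histone genes it was 0.015 for Itgb1 at day 0, -0.002 for Cd44 at day 3, and -0.056 for Itgax and -0.054 for Itgb1 at day 7 of the macrophage course. Leaving out 1 library gave, at day 0, -0.505 to 0.019 for Itgam, -0.411 to 0.021 for Itgal, -0.047 to 0.557 for Itgb2, -0.108 to 0.042 for Itgb1 and -0.039 to 0.235 for Cd44. It gave -0.101 to 0.077 for Cd44 at day 3, -0.169 to 0.391 for Itgax at day 7 of the macrophage course, and -0.147 to 0.076 for Itgb1 and -0.022 to 0.659 for Itgb7 at day 7 of the granulocyte course. The replicate block left 5 of 9 genes past the threshold at day 5 of the macrophage course, where the numbers paired the samples. Between courses at day 7 in control cells it left 6 of 9, and it changed no other call of the 9 genes. The block was shared by all groups of a fit, whereas the numbers paired only between some of them. Unchanged calls therefore do not show that the pairing between courses was accounted for.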
